A study of Mus musculus with 10 samples.

Results

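The genes described here are 9 transcripts of milk production and of the luminal cells that make milk, measured in mouse mammary fat pads: the casein genes Csn1s1, Csn1s2a, Csn2 and Csn3, the whey protein genes Wap, Lalba and Ltf, the transcription factor gene Elf5, and Aldh1a3, a gene of secretory luminal progenitors. They were taken by gene symbol from the 30319 symbols of the table. All 9 were present, and all 9 passed the filter of at least 1 TPM in at least 2 libraries that left 16932 genes for testing. TPM (transcripts counted per fixed total) is a level per length of transcript, so it can be set side by side between genes. The RNA was total RNA, sequenced after ribosomal RNA was depleted, from the subcutaneous mammary fat pads of the groin of FVB females. All groups shared that strain and sex and ate ingredient-matched diets between 12 and 30 weeks of age. Null_LFD (n = 3) was FAP-/- on a diet with 10% of calories from fat, WT_LFD (n = 2) was wild type on the same diet, Null_HFD (n = 3) was FAP-/- on a diet with 60% of calories from fat, and WT_HFD (n = 2) was wild type on that diet. FAP is fibroblast activation protein, a serine protease on the surface of activated fibroblasts. The series frames its question around fat cell formation and mTOR signalling, and the pads were sampled whole, so their mammary ducts came with the fat. Stage of the estrous cycle, breeding history and age at sampling are not stated by the labels.

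Milk proteins are made by luminal alveolar cells of the mammary gland. Prolactin acts through its receptor, the kinase JAK2 and the transcription factor STAT5 to switch on the casein, Wap and Lalba genes, and ELF5, a factor of the ETS family, works with STAT5 in setting up the alveolar lineage. The caseins carry calcium phosphate in micelles, kappa-casein from Csn3 keeps those micelles in solution, alpha-lactalbumin from Lalba is the cofactor for lactose synthesis, and whey acidic protein from Wap is a marker of late pregnancy and lactation in the mouse. Lactoferrin, the product of Ltf, binds iron and is also a granule protein of neutrophils. In a gland that is not lactating these transcripts persist at low levels in the resting ducts and vary with the estrous cycle.

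The 4 casein genes lie in 1 cluster on chromosome 5 of GRCm38 (GENCODE M21), from 87666208 to 87932665, a stretch of 266.5 kb that holds 7 coding genes in the order Csn1s1, Csn2, Csn1s2a, Csn1s2b, Prr27, Odam and Csn3. Csn1s1 spans 87666208 to 87682578, Csn1s2a 87774567 to 87788797 and Csn3 87925579 to 87932665, all on the plus strand, while Csn2 spans 87692624 to 87699630 on the minus strand. Wap spans 6635482 to 6638637 of chromosome 11 and Lalba spans 98480400 to 98482721 of chromosome 15, both on the minus strand. Ltf spans 111019271 to 111042767 of chromosome 9 on the plus strand. Aldh1a3 spans 66390890 to 66427517 of chromosome 7 on the minus strand. Elf5 spans 103411688 to 103450989 of chromosome 2 on the plus strand, the chromosome of Fap, at a distance of 40.8 Mb. Between 0% and 2.32% of the 31-base words in the transcripts of each of the 9 genes also occurred in transcripts of other genes. Csn3 overlaps an antisense gene, 1700066N21Rik, on the opposite strand, and the labels do not say whether the quantification used strand.

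Promoter sequences from RefSeq (GRCm38.p6) were matched by symbol for 7 of the 9 genes, in 8 windows that run from 250 bases upstream of the start to 50 bases into the gene. Csn3 and Aldh1a3 are named only. The letters TTCNNNGAA, the gamma interferon activated sequence that STAT5 reads, were found in 3 of the 8 windows and in 8.3% of all 32851 windows of the same length. The motif is a palindrome, so both strands were searched at once. Counted from the RefSeq start, it was 100 bases upstream in Csn1s1 (TTCTTAGAA) and 93 bases upstream in Csn2 (TTCTTGGAA). In Csn1s2a (TTCTTAGAA) it was 21 bases past that start. The Csn1s2a window ends at 87774499, before the GENCODE gene starts at 87774567, so this site lies upstream of the GENCODE gene. GGAAGT or GGAAGG, the core read by ETS factors such as ELF5, was searched on both strands and found in 2 of the 8 windows, 107 bases upstream in Wap (GGAAGT) and 89 bases upstream in Ltf (GGAAGG), against 48% of all windows. No window of the 9 genes held both motifs. The upstream 250 bases of a pair of caseins, which carry the STAT5 letters, and of Wap, which carries the ETS letters, are shown because these genes had the widest ranges of level among the libraries together with Csn1s2a and Lalba. They are written 5′ to 3′ with the motif in capitals. The regions are chr5:87665958-87666207 on the plus strand for Csn1s1, chr5:87699426-87699675 on the minus strand for Csn2, whose RefSeq start lies inside the GENCODE gene, and chr11:6638650-6638899 on the minus strand for Wap.
Csn1s1: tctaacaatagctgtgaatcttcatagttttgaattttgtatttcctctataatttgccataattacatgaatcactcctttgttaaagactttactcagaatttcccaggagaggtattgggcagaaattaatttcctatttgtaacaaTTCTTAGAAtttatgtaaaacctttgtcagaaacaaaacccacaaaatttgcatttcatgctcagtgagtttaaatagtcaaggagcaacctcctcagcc
Csn2: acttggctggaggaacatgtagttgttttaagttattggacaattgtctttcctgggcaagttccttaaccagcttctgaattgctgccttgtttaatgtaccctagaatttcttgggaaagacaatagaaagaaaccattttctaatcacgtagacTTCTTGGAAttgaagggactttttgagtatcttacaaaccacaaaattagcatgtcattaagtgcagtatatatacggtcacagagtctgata
Wap: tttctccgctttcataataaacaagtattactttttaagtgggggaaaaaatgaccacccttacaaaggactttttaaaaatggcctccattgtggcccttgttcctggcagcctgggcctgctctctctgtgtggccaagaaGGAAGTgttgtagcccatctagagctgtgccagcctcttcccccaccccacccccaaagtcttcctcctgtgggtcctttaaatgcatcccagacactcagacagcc
A match of letters is a description of the sequence and shows no binding.

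Per library, 14574 to 15700 genes were at 1 TPM or more, and because TPM keeps no read numbers the depth behind a value is unknown. The transcript of the targeted gene, Fap, measured 18.3 to 38.4 TPM in the 6 null libraries and 37.7 to 68.8 TPM in the 4 wild-type libraries (log2 difference -0.94, SE 0.21, limma adjusted p = 0.686), and the labels do not say which part of the gene is removed. Libraries Null_HFD 3 and WT_HFD 2 stood apart. The mean of 10 lymph node genes was 7.25 and 5.84 there on the log2(TPM + 1) scale, against 1.08 to 1.73 in the other 8 libraries, and the mean of 6 skeletal muscle genes was 3.83 and 4.81, against 7.96 to 10.3. Null_LFD 3 stood apart in 6 cell cycle genes, with a mean of 6.11 against 2.17 to 4.02 in the other 9 libraries. The mean of 10 general epithelial genes (keratins, Epcam, E-cadherin, claudins and Esrp1) was 5.42, 6.39 and 6.25 in Null_LFD libraries, 5.64 and 4.58 in WT_LFD libraries, 4.95, 5.44 and 3.70 in Null_HFD libraries, and 5.50 and 5.55 in WT_HFD libraries. None of the 10 was at 0 in a library, so every pad held epithelial transcripts, and their level was lowest in Null_HFD 3 and WT_LFD 2. The mean of 8 adipocyte genes was 9.31 to 10.8, and that of 6 genes of skin keratinocytes was 0.995 to 1.81, with 2 or 3 of the 6 at 0 in each library. In whole pads, fewer cells of a type and less RNA per cell cannot be told apart.

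Milk transcripts were present in these pads and differed widely among mice of 1 group. The 4 caseins together took 0.619%, 0.495% and 0.0859% of all TPM in the Null_LFD libraries, 0.0693% and 0.0110% in the WT_LFD libraries, 0.160%, 0.0340% and 0.0176% in the Null_HFD libraries, and 0.173% and 0.0978% in the WT_HFD libraries. The highest share was in Null_LFD 1, and the lowest was in WT_LFD 2. In Null_LFD 1 Csn3 was the transcript of rank 71 among all genes, and in WT_LFD 2 it was of rank 2098. Null_LFD 1 and 2 were the highest pair of libraries for 7 of the 9 genes, with Ltf and Aldh1a3 as the exceptions. On the log2 scale the SD over the 10 libraries of each gene but Aldh1a3 was larger than that of 91.5% or more of the genes tested, while for Aldh1a3 it was larger than that of 45.5%.

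**Figure D1:**
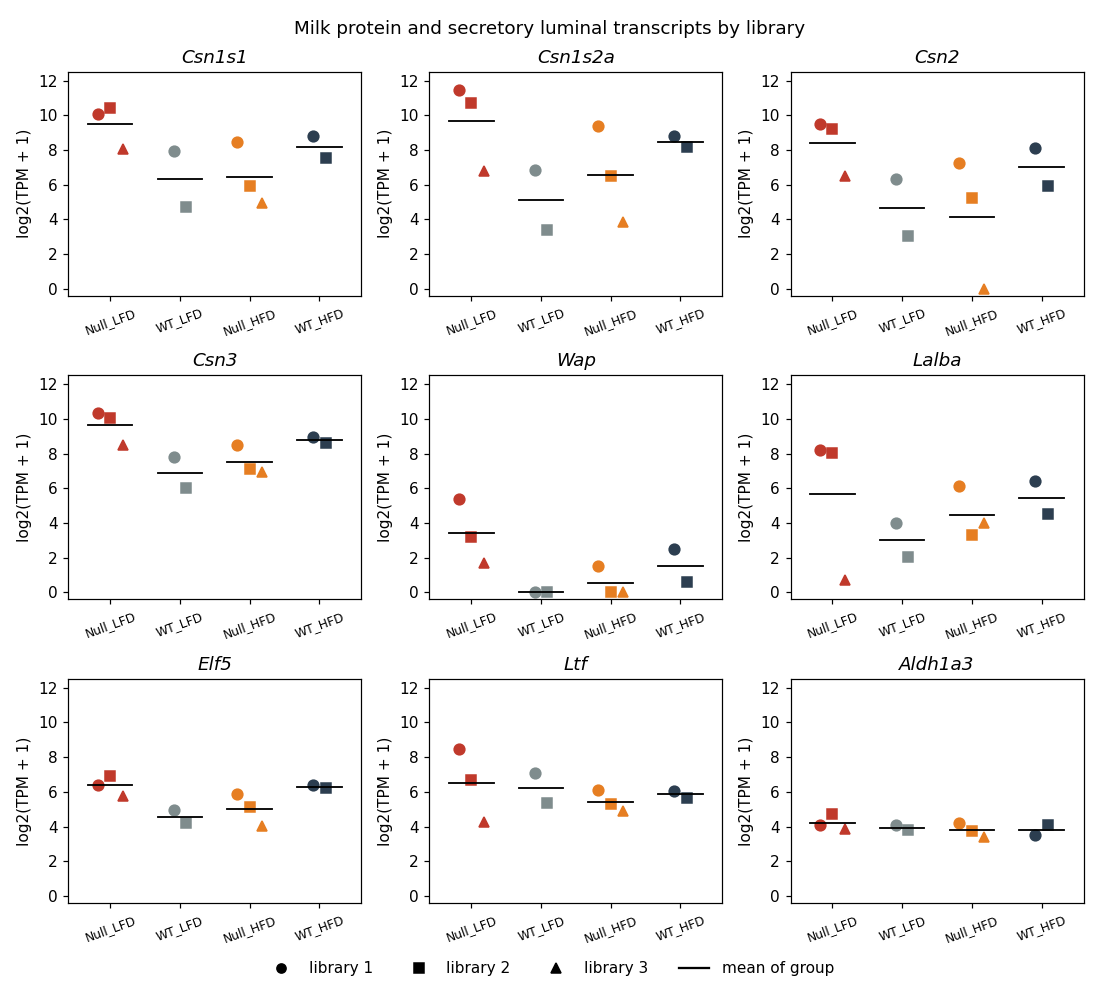
Level of each of the 9 genes on the log2(TPM + 1) scale (vertical axis) in the 10 libraries, with 1 point per library, the 4 groups on the horizontal axis and a bar at each group mean. Null_LFD 1 and 2 are the highest pair of libraries in 7 of the 9 panels, and Wap is listed at 0 in both WT_LFD libraries and in Null_HFD 2 and 3.

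Csn3 encodes kappa-casein, the casein on the surface of the micelle. It measured 1306, 1059 and 358 TPM in Null_LFD pads against 223 and 63.1 TPM in WT_LFD pads, and 353, 137 and 124 TPM in Null_HFD pads against 497 and 391 TPM in WT_HFD pads. The genotypes did not overlap on either diet, and their order was opposite on the diets. Csn1s1 encodes alpha-S1-casein. It measured 1084, 1367 and 261 TPM in Null_LFD pads against 243 and 25.4 TPM in WT_LFD pads, and 355, 59.7 and 29.8 TPM in Null_HFD pads against 441 and 182 TPM in WT_HFD pads. The low-fat groups did not overlap, though the lowest null and the highest wild-type library were close, and the high-fat groups overlapped.

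Csn1s2a encodes an alpha-S2-like casein. It measured 2764, 1666 and 111 TPM in Null_LFD pads against 115 and 9.28 TPM in WT_LFD pads, and 661, 90.1 and 13.5 TPM in Null_HFD pads against 437 and 292 TPM in WT_HFD pads. It reached the highest level of the 9 genes in Null_LFD 1, and its genotypes overlapped on both diets. Csn2 encodes beta-casein. It measured 717, 594 and 89.0 TPM in Null_LFD pads against 79.4 and 7.12 TPM in WT_LFD pads, and 152 and 36.2 TPM in Null_HFD 1 and 2, with Null_HFD 3 listed at 0, against 273 and 60.7 TPM in WT_HFD pads. The low-fat groups were separated by a narrow gap, and the high-fat groups overlapped. Null_HFD 3 listed 3 genes, Csn2 among them, at 0 that had at least 5 TPM in each of the other 9 libraries.

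The balance among the caseins was not constant. Csn1s2a led the caseins in Null_LFD 1 and 2 and in Null_HFD 1, Csn1s1 led in WT_LFD 1, and Csn3 led in the other 6 libraries. Relative to Csn3, Csn1s2a ran from 0.109 to 2.12. The whey gene Lalba stood at 0.0492 to 0.245 of Csn3 in 9 libraries and at 0.00174 in Null_LFD 3. Elf5 kept a narrower range, from 0.0642 to 0.273 of Csn3.

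**Figure D2:**
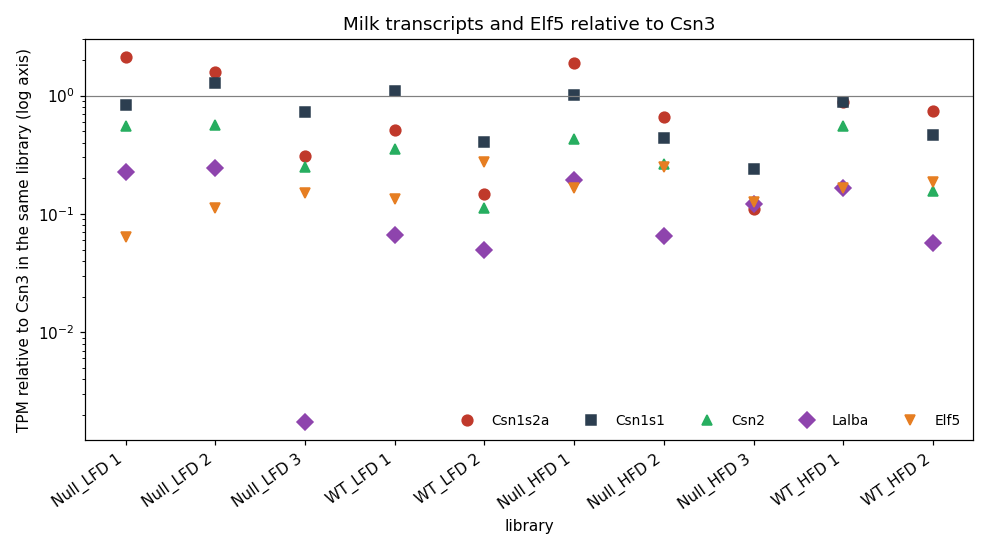
TPM of Csn1s1, Csn1s2a, Csn2, Lalba and Elf5 divided by the TPM of Csn3 in the same library (vertical axis, log scale) for the 10 libraries (horizontal axis), with no point where a gene is listed at 0. Csn1s2a is above 1 in Null_LFD 1, Null_LFD 2 and Null_HFD 1, and Lalba is at 0.00174 in Null_LFD 3.

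Among the whey protein genes, Wap was the 1 gene listed at 0 in more than 1 library. It measured 40.0, 8.07 and 2.21 TPM in Null_LFD pads and was listed at 0 in both WT_LFD pads. It measured 1.91 TPM in Null_HFD 1 and was listed at 0 in Null_HFD 2 and 3, against 4.60 and 0.497 TPM in WT_HFD pads. All 3 Null_LFD libraries had the transcript, and no fold is given against a group listed at 0. Lalba measured 293, 260 and 0.622 TPM in Null_LFD pads against 14.8 and 3.10 TPM in WT_LFD pads, and 68.6, 8.89 and 15.1 TPM in Null_HFD pads against 82.9 and 22.1 TPM in WT_HFD pads. Null_LFD held both the 2 highest libraries and the lowest library of this gene.

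Ltf measured 358, 102 and 18.5 TPM in Null_LFD pads against 137 and 39.2 TPM in WT_LFD pads, and 67.8, 38.1 and 29.1 TPM in Null_HFD pads against 66.2 and 48.9 TPM in WT_HFD pads. Its groups overlapped on both diets, and its range over all 10 libraries, 19.3-fold, was set inside Null_LFD. The mean of 8 neutrophil genes was 2.43 in Null_HFD 3 and 1.26 to 1.60 in the other 9 libraries on the log2(TPM + 1) scale, and its part in the Ltf level was not tested. Camp, Ngp, S100a8 and S100a9 were highest in Null_HFD 3, at 2.97, 1.16, 17.2 and 18.6 TPM, where Ltf was at 29.1 TPM. Elane and Lcn2 were highest in Null_LFD 1, at 1.74 and 577 TPM, the library with the highest Ltf, where Camp and Ngp were listed at 0. Retnlg was highest in Null_LFD 3, at 2.24 TPM, and Mpo in WT_LFD 2, at 0.602 TPM.

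Elf5 was present in every library, above Aldh1a3 and below Csn3 in each of the 10. It measured 83.8, 119 and 54.1 TPM in Null_LFD pads against 29.9 and 17.2 TPM in WT_LFD pads, and 58.5, 34.2 and 15.5 TPM in Null_HFD pads against 82.4 and 72.2 TPM in WT_HFD pads. Like Csn3, it was separated by genotype on both diets, in opposite order. Aldh1a3 encodes an aldehyde dehydrogenase that makes retinoic acid. It measured 15.9, 25.0 and 13.5 TPM in Null_LFD pads against 16.2 and 12.7 TPM in WT_LFD pads, and 17.4, 12.2 and 9.65 TPM in Null_HFD pads against 10.4 and 15.9 TPM in WT_HFD pads. Its whole range was 2.59-fold, and the genotypes overlapped on both diets.

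Ordered by mean log2 level, 6 genes (Csn1s1, Csn1s2a, Csn3, Wap, Lalba and Elf5) ran from Null_LFD through WT_HFD and Null_HFD to WT_LFD. Csn2 differed in having Null_HFD last, where the listed 0 enters its mean. Ltf and Aldh1a3 ran from Null_LFD through WT_LFD and WT_HFD to Null_HFD. Neighbouring groups in these orders overlapped for every gene, except WT_HFD and Null_HFD for Csn3 and Elf5.

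In the low-fat comparison, every gene had a higher mean in null pads, where 66.9% of all genes were higher, and none passed the test over all genes (limma, Benjamini-Hochberg adjusted p of at most 0.05: 0 of 9, against 0% of all genes). On the log2(TPM + 1) scale, null minus wild type was 2.73 for Csn3 (SE 0.70, limma adjusted p = 0.949), 1.80 for Elf5 (SE 0.51), 3.18 for Csn1s1 (SE 1.21), 4.54 for Csn1s2a (SE 1.76) and 3.72 for Csn2 (SE 1.94). Differences on this scale understate fold changes of low genes. Lalba was at 2.63 (SE 2.02), while Ltf and Aldh1a3 were each at 0.27 (SE 1.02 and 0.34). The 95% interval reached from 1.15 to 4.30 for Csn3 and from -0.49 to 1.04 for Aldh1a3. At an unadjusted p under 0.05 there were 5 of the 9 (Csn1s1, Csn1s2a, Csn3, Wap and Elf5, all higher), against 3.63% of all genes called higher at that level. The groups did not overlap, with null above wild type, for 5 genes (Csn1s1, Csn2, Csn3, Wap and Elf5), against 19.1% of all genes. The median of the 9 differences was 2.73, and that of all genes was 0.15, or 0.01 after median-of-ratios scaling, under which the 9 genes kept their directions. The count of 5 was 2 without WT_LFD 2 and 3 without Null_LFD 1 or without Null_LFD 2, and the general epithelium mean was lowest of the low-fat libraries in WT_LFD 2. The median was 1.66 without WT_LFD 2. Leaving out 1 library at a time moved Csn3 between 1.82 and 3.63 and Elf5 between 1.42 and 2.18. Genes of other kinds lay in the same direction without passing (limma). All 6 skeletal muscle genes were higher in null pads (median 1.36, 5 without overlap), with list means of 10.3, 9.78 and 8.77 in Null_LFD libraries against 8.46 and 7.96 in WT_LFD libraries. All 6 cell cycle genes were higher as well (median 1.76), with list means of 2.28, 3.77 and 6.11 against 2.17 and 2.41. The part of either in the milk gene differences was not tested.

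In the high-fat comparison the order was opposite: every gene had a lower mean in null pads, where 52.1% of all genes were higher, and again none passed (limma, 0 of 9, against 0.0118% of all genes). Null minus wild type was -1.28 for Csn3 (SE 0.70, limma adjusted p = 1), -1.26 for Elf5 (SE 0.51), -1.70 for Csn1s1 (SE 1.21), -1.90 for Csn1s2a (SE 1.76) and -2.86 for Csn2 (SE 1.94). Without Null_HFD 3, where Csn2 is listed at 0, the Csn2 value was -0.78. Wap was at -1.02 (SE 1.00), Lalba at -0.98 (SE 2.02), Ltf at -0.42 (SE 1.02) and Aldh1a3 at -0.01 (SE 0.34). Elf5 was the 1 gene with an unadjusted p under 0.05, against 1.94% of all genes called lower at that level, and it did not keep that p without WT_HFD 1, WT_HFD 2, Null_HFD 2 or Null_HFD 3, each left out alone. Without Null_HFD 1 the count was 4. Csn3 and Elf5 were the 2 genes whose groups did not overlap, with null below wild type, against 7.78% of all genes. Without both Null_HFD 3 and WT_HFD 2, the libraries rich in lymph node transcripts, Csn3 was at -1.17 and Elf5 at -0.86. The median of the 9 was -1.26, against 0.02 over all genes, and it was -0.76 without Null_HFD 3 and -1.91 without WT_HFD 2.

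**Figure D3:**
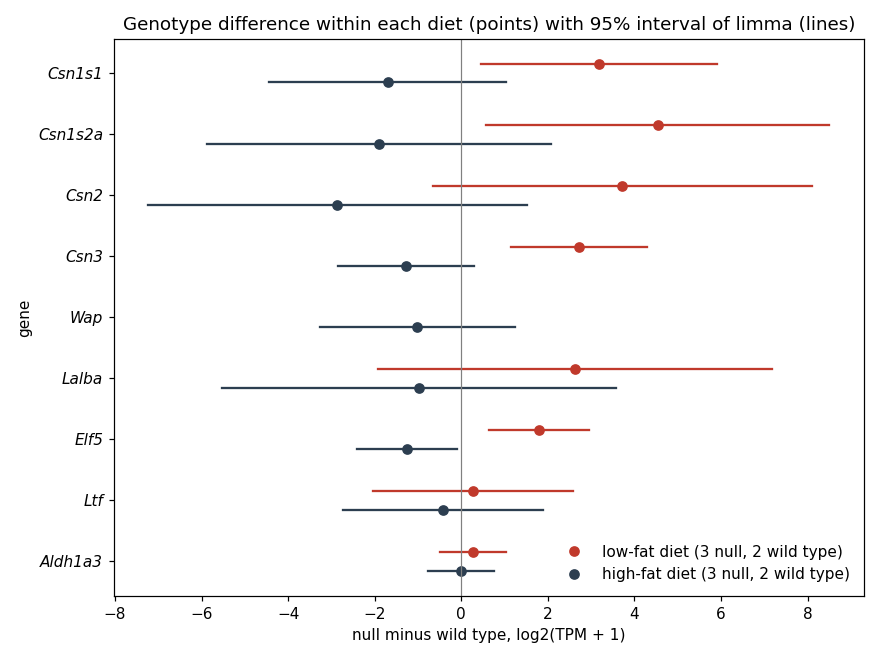
Null minus wild type on the log2(TPM + 1) scale (horizontal axis) for each gene (vertical axis) on the low-fat and the high-fat diet, as limma estimates with 95% intervals, and without a low-fat point for Wap, which is listed at 0 in both WT_LFD libraries. All points shown lie above 0 on the low-fat diet and below 0 on the high-fat diet, and no difference passed the test over all genes.

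The interaction of genotype and diet, the high-fat difference minus the low-fat difference, was below 0 for each of the 9 genes, where 38.2% of all genes were above 0, and none passed (limma, 0 of 9, against 0% of all genes). It was -4.00 for Csn3 (SE 0.99, limma adjusted p = 0.966) and -3.06 for Elf5 (SE 0.72, limma adjusted p = 0.966). Without both Null_HFD 3 and WT_HFD 2 these were -3.90 and -2.66. Csn1s1 was at -4.89 (SE 1.71), Csn1s2a at -6.44 (SE 2.49) and Csn2 at -6.59 (SE 2.74), while Ltf was at -0.69 (SE 1.45) and Aldh1a3 at -0.29 (SE 0.48). An unadjusted p under 0.05 was reached by 6 of the 9 (the 4 caseins, Wap and Elf5), against 3.07% of all genes called lower at that level. The median was -4.00 against -0.13 over all genes. The count was 3 without WT_LFD 2, 2 without WT_HFD 1 and 4 without Null_LFD 1 or without Null_LFD 2. Null above wild type without overlap on the low-fat diet together with null below it without overlap on the high-fat diet held for 2 of the 9 genes, Csn3 and Elf5, and for 1.43% of all genes, 242 of 16932. It also held for Epcam and Cldn3 of the 10 general epithelial genes, for Cd14, Sox10 and Lcn2 of the 8 luminal progenitor genes and for Trp63 of the 8 basal genes. An interaction below 0 at an unadjusted p under 0.05 (limma) was reached by 5 of 10 general epithelial and 5 of 8 luminal progenitor genes.

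Averaged over the diets, the differences were nearer to 0. Null minus wild type was above 0 for 8 of the 9 genes, and for 63.5% of all genes, with a median of 0.72 against 0.08 over all genes, and none passed (limma, 0 of 9, against 0% of all genes), with 0 of 9 at an unadjusted p under 0.05 against 4.19% of all genes. That count was 2 without Null_LFD 3 and 1 without WT_LFD 1. The median was 0.08 without WT_LFD 2, where 6 genes were above 0. It was 0.23 without Null_LFD 2 or without Null_HFD 1, 0.26 without Null_LFD 1, 0.36 without WT_HFD 2 and 1.19 without WT_LFD 1.

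Between the diets, the genotypes are given side by side, and the diet comparisons use the same libraries as the genotype comparisons. In null pads every gene had a lower mean on the high-fat diet, where 54.9% of all genes were higher, and none passed (limma, 0 of 9, against 0.00591% of all genes). High-fat minus low-fat in null pads was -2.12 for Csn3 (SE 0.62, limma adjusted p = 0.708), -1.34 for Elf5 (SE 0.46), -3.06 for Csn1s1, -3.06 for Csn1s2a, -4.24 for Csn2, -2.89 for Wap, -1.16 for Lalba, -1.05 for Ltf and -0.43 for Aldh1a3. An unadjusted p under 0.05 was reached by 5 of the 9, against 3.11% of all genes called lower at that level, and by 3 without Null_LFD 1, 2 without Null_LFD 2, 2 without Null_HFD 3 and 8 without Null_LFD 3. The median of the 9 was -2.12 against 0.04 over all genes, and -3.63 without Null_LFD 3. The Null_HFD libraries lay below the Null_LFD libraries without overlap for 2 of the 9, Csn3 and Wap, against 4.49% of all genes. Both gaps were narrow. Null_HFD 1 and Null_LFD 3 were at 353 and 358 TPM for Csn3 and at 1.91 and 2.21 TPM for Wap. In the same comparison, 8 of 10 general epithelial genes were lower at an unadjusted p under 0.05 (limma), and 6 of 10 were lower without overlap. For the luminal progenitor genes these counts were 4 of 8 and 3 of 8. In wild-type pads 7 of the 9 genes had a higher mean on the high-fat diet, as had 67.1% of all genes, and none passed (limma, 0 of 9, against 0% of all genes). High-fat minus low-fat in wild-type pads was 1.88 for Csn3 (SE 0.76), 1.72 for Elf5 (SE 0.56, limma adjusted p = 0.761), 1.82 for Csn1s1, 3.38 for Csn1s2a, 2.35 for Csn2 and 2.45 for Lalba, against -0.36 for Ltf and -0.15 for Aldh1a3. The median of the 9 was 1.82 against 0.20 over all genes, or 1.62 against 0.02 after median-of-ratios scaling. It was 0.98 without WT_LFD 2 and 2.79 without WT_LFD 1, and over the settings tried Csn1s1 ran from 0.22 to 3.43. Csn3 and Elf5 were the 2 genes with an unadjusted p under 0.05, against 4.24% of all genes called higher at that level, and the count was 0 without WT_LFD 2 or without WT_HFD 1 and 1 without WT_HFD 2. The WT_HFD and WT_LFD libraries did not overlap for 5 of the 9 genes (Csn1s2a, Csn3, Wap, Lalba and Elf5, all higher on the high-fat diet), against 33.7% of all genes. Averaged over the genotypes, 3 genes were higher and 6 lower on the high-fat diet, where 63.4% of all genes were higher, with a median of -0.29 against 0.11 over all genes, and none passed (limma, 0 of 9, against 0% of all genes), with 0 of 9 at an unadjusted p under 0.05 against 9.69% of all genes. That direction turned with the libraries used. The median was 0.18 without WT_LFD 1, 0.02 without Null_HFD 3 and 0.10 without both Null_HFD 3 and WT_HFD 2, with 5, 5 and 6 genes higher, and it was -0.68 without WT_LFD 2, -0.59 without Null_LFD 3 and -0.54 without Null_HFD 1. The count at an unadjusted p under 0.05 was 1 without Null_LFD 3.

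Between group means, the general epithelium mean lay on the same side as the 9 genes in the genotype comparison of each diet. Within Null_LFD it did not follow them. It was 5.42 in Null_LFD 1 and 6.25 in Null_LFD 3, where the mean of the 9 genes was 8.21 and 5.12. The epithelial mean was 0.91 higher in null than in wild-type pads on the low-fat diet. On the high-fat diet it was 0.82 lower (difference -0.82), an interaction of -1.73. Its part in the milk gene differences was not tested, and each gene is given relative to it in place of that. After the mean of the 10 epithelial genes was subtracted in each library, null minus wild type on the low-fat diet was 3.63 for Csn1s2a, 2.82 for Csn2, 2.28 for Csn1s1, 1.82 for Csn3, 1.73 for Lalba and 0.89 for Elf5. For Ltf it was -0.64 and for Aldh1a3 -0.63, so the sign of these genes turned. On the high-fat diet the subtracted difference was -2.04 for Csn2, which is listed at 0 in Null_HFD 3. It was -1.08 for Csn1s2a, -0.88 for Csn1s1, -0.45 for Csn3, -0.44 for Elf5 and -0.16 for Lalba, and 0.41 for Ltf and 0.81 for Aldh1a3. The subtracted interaction was -4.86 for Csn2, -4.71 for Csn1s2a, -3.16 for Csn1s1, -2.27 for Csn3, -1.88 for Lalba and -1.33 for Elf5. For Ltf the subtracted interaction was 1.05 and for Aldh1a3 1.44. High-fat minus low-fat, the epithelial mean itself was -1.32 in null pads and 0.41 in wild-type pads. After subtraction, the null-pad value was -2.92 for Csn2, -1.74 for Csn1s1 and for Csn1s2a, and -0.80 for Csn3. For Elf5 it was -0.02, for Lalba 0.16, for Ltf 0.27 and for Aldh1a3 0.89. In wild-type pads it was 2.97 for Csn1s2a, 2.04 for Lalba, 1.94 for Csn2, 1.47 for Csn3, 1.41 for Csn1s1 and 1.31 for Elf5. For Ltf it was -0.78 there and for Aldh1a3 -0.56.

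Per library, Csn3 lay 4.94, 3.66 and 2.24 above the epithelial mean in Null_LFD pads against 2.16 and 1.42 in WT_LFD pads. The low-fat groups still did not overlap. Relative to the epithelial mean, Csn3 lay at 3.51, 1.67 and 3.26 in Null_HFD pads against 3.46 and 3.07 in WT_HFD pads, where the groups overlapped. Relative to it, Elf5 lay at 0.99, 0.51 and -0.46 in Null_LFD pads against -0.70 and -0.39 in WT_LFD pads, and at 0.94, -0.30 and 0.34 in Null_HFD pads against 0.88 and 0.65 in WT_HFD pads. On this scale the Elf5 groups overlapped on both diets.

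**Figure D4:**
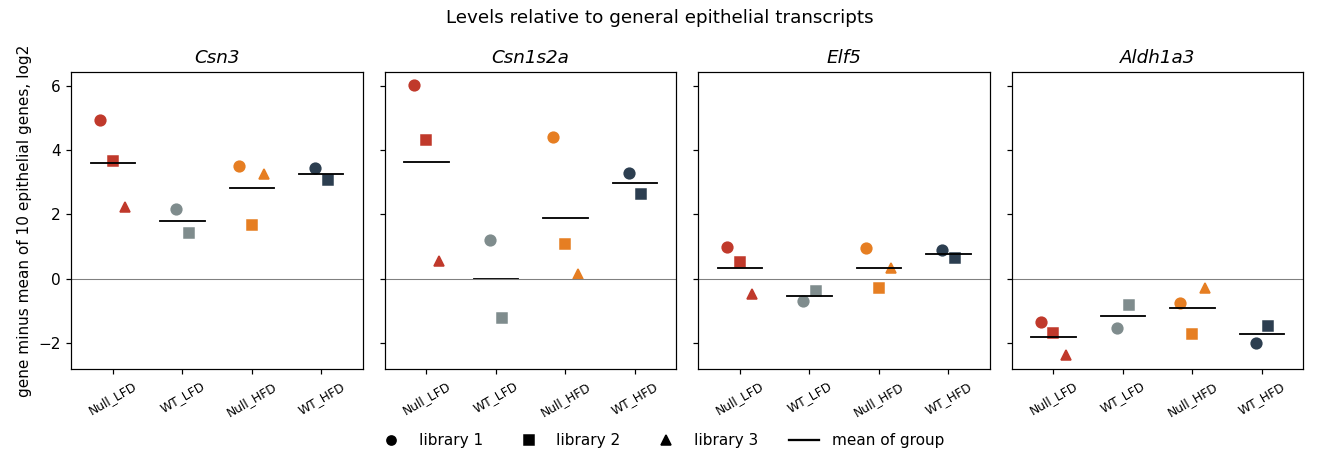
Levels of Csn3, Csn1s2a, Elf5 and Aldh1a3 minus the mean of 10 general epithelial genes in the same library, on the log2(TPM + 1) scale (vertical axis), by group (horizontal axis), with 1 point per library and a bar at each group mean. On the low-fat diet the Csn3 libraries of null pads, at 2.24 to 4.94, stay above those of wild-type pads, at 1.42 and 2.16, while the Elf5 libraries overlap.

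Other milk and secretion genes lay mostly on the same side as the 9 on each diet, and none passed the test in any of the 7 comparisons (limma). Of 15 listed, 13 were tested, and 12 of the 13 were higher in null than in wild-type pads on the low-fat diet, with a median of 1.60. Of the 13, 4 had an unadjusted p under 0.05, where 3.63% of all genes were called higher at that level and 66.9% lay above 0. On the high-fat diet 11 of the 13 were lower in null pads (median -0.92), where 52.1% of all genes were higher. The interaction was below 0 for all 13 (median -2.72), where 38.2% of all genes were above 0. In it, 4 of the 13 had an unadjusted p under 0.05 against 3.07% of all genes called lower. Spp1 encodes osteopontin, a phosphoprotein of milk and of many other tissues. It measured 2926, 641 and 177 TPM in Null_LFD pads against 197 and 46.1 TPM in WT_LFD pads, and 396, 165 and 161 TPM in Null_HFD pads against 767 and 827 TPM in WT_HFD pads (low-fat log2 difference 2.84, SE 1.03, limma adjusted p = 0.949). Its low-fat groups overlapped at Null_LFD 3. Muc15 encodes a mucin of the milk fat globule membrane. It measured 124, 287 and 99.99 TPM in Null_LFD pads against 62.9 and 24.8 TPM in WT_LFD pads (low-fat log2 difference 1.92, SE 0.85, limma adjusted p = 0.949).

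Lao1 encodes an L-amino acid oxidase of mouse milk. It measured 34.9, 15.8 and 0.857 TPM in Null_LFD pads against 0.709 and 0.191 TPM in WT_LFD pads, and 9.75, 1.09 and 0.727 TPM in Null_HFD pads against 18.9 and 6.86 TPM in WT_HFD pads. Like Lalba, it was low in Null_LFD 3. Csn1s2b, the neighbouring casein gene, measured 3.33, 1.99 and 0.478 TPM in Null_LFD pads, against 0.0705 TPM in WT_LFD 2 and a listed 0 in WT_LFD 1. Glycam1, chosen after its values were seen, is both a milk gene and a gene of the high endothelial venules of lymph nodes. It measured 1264 TPM in Null_HFD 3 and 674 TPM in WT_HFD 2, the libraries rich in lymph node transcripts. In Null_LFD pads it measured 22.9, 49.4 and 10.1 TPM, and in WT_LFD pads 0.266 TPM in replicate 2 and a listed 0 in replicate 1.

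The prolactin and STAT5 pathway and the regulators of secretion, measured in whole pads, had median differences nearer to 0. Of 16 genes, 14 were higher in null pads on the low-fat diet with a median of 0.44, where 66.9% of all genes were higher. None of them was at an unadjusted p under 0.05 and none passed (limma). The interaction was below 0 for all 16 with a median of -0.52, where 38.2% of all genes were above 0. In it, 2 of the 16 had an unadjusted p under 0.05 (limma), against 3.07% of all genes called lower. They were Ehf at -2.40 (SE 0.83) and Elf3 at -1.64 (SE 0.71). Stat5a, which encodes the main STAT5 protein of the mammary gland, differed by 0.15 on the low-fat diet (SE 0.28) and by -0.08 on the high-fat diet (SE 0.28). Ehf, an ETS factor gene of epithelium, measured 57.1, 155 and 68.6 TPM in Null_LFD pads against 40.6 and 26.9 TPM in WT_LFD pads (log2 difference 1.33, SE 0.59, limma adjusted p = 0.949). Prlr, the prolactin receptor gene, measured 51.9, 111 and 25.9 TPM in Null_HFD pads against 162 and 112 TPM in WT_HFD pads, and 64.4, 134 and 105 TPM in Null_LFD pads against 150 and 105 TPM in WT_LFD pads. Its high-fat difference was -1.32 (SE 0.54, limma adjusted p = 1). It was the 1 gene of the list at an unadjusted p under 0.05 on the high-fat diet, against 1.94% of all genes called lower. Prlr and Stat5a were chosen after their values were seen. Averaged over the genotypes, high-fat minus low-fat was -0.92 for Cish (SE 0.35), a STAT5 target gene and feedback inhibitor of the pathway, and 0.54 for Stat5b (SE 0.22), and neither passed (limma adjusted p = 0.513).

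Luminal progenitors are the cells from which alveolar cells arise. All 8 genes of their list were higher in null pads on the low-fat diet (median 0.94), where 66.9% of all genes were higher. Of the 8, 5 were at an unadjusted p under 0.05 against 3.63% of all genes called higher, and none passed (limma). On the high-fat diet 3 were higher and 5 lower (median -0.46), with 1 above and 3 below without overlap. Of all 16932 genes, 1308 lay above and 1318 below without overlap there. Cd14, a co-receptor for bacterial lipopolysaccharide, measured 90.4, 108 and 33.4 TPM in Null_LFD pads against 18.6 and 15.6 TPM in WT_LFD pads (log2 difference 1.96, SE 0.45, limma adjusted p = 0.949). Lcn2, the gene of the iron-trapping protein lipocalin-2, measured 577, 373 and 123 TPM in Null_LFD pads against 116 and 47.1 TPM in WT_LFD pads, and 161, 114 and 55.1 TPM in Null_HFD pads against 262 and 395 TPM in WT_HFD pads. Its differences were 2.00 (SE 0.68) and -1.67 (SE 0.68) on the low-fat and the high-fat diet. It was the 1 gene of the list at an unadjusted p under 0.05 on the high-fat diet, against 1.94% of all genes called lower. Lcn2 is also a neutrophil granule gene and is in both lists. Kit, a receptor kinase of luminal progenitors, differed by 0.88 (SE 0.36) and Lbp, a lipopolysaccharide-binding protein gene, by 1.00 (SE 0.33) on the low-fat diet. The interaction was below 0 for all 8 genes (median -1.32), where 38.2% of all genes were above 0.

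General epithelial genes were higher in null pads on the low-fat diet in 10 of 10 cases (median 1.00) and lower on the high-fat diet in 10 of 10 (median -0.96), with none passing (limma). Over all genes, 66.9% were higher in null pads on the low-fat diet and 52.1% on the high-fat diet. Cldn3 and Cldn7, which encode claudins of tight junctions, differed by 1.46 (SE 0.57) and 1.40 (SE 0.56) on the low-fat diet. Of 8 basal genes, 8 were higher on the low-fat diet (median 0.66), with Trp63, a basal lineage factor gene, at 1.45 (SE 0.51), and on the high-fat diet 4 were higher and 4 lower. Of the 8 hormone-sensing luminal genes, 6 were lower in null pads on the low-fat diet (median -0.09), and 6 on the high-fat diet. Pgr, the progesterone receptor gene, differed by -1.25 between the high-fat and the low-fat diet averaged over the genotypes (SE 0.35, limma adjusted p = 0.513), which did not pass.

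**Figure D5:**
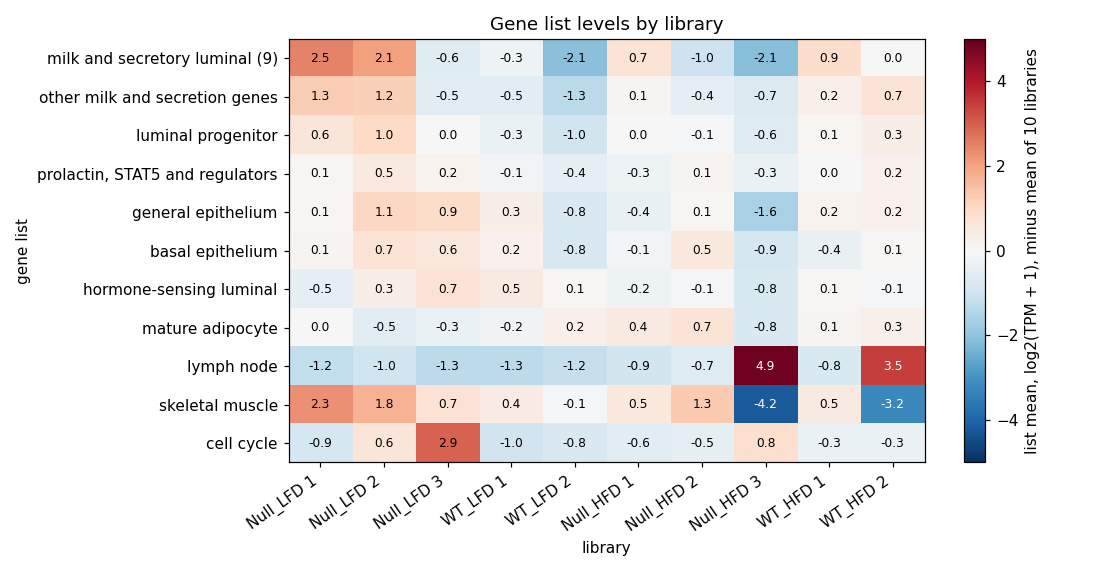
Mean log2(TPM + 1) of each gene list in each library (columns) minus the mean of that list over the 10 libraries, as a colour scale with the values printed. The row of the 9 milk and secretory luminal genes is highest in Null_LFD 1 and 2, and the lymph node row is highest in Null_HFD 3 and WT_HFD 2.

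Across the 10 libraries, the level of each gene was compared with the mean of the other 8 after scaling, as a description only, since the libraries share groups and epithelial content. Pearson's r ran from 0.624 for Aldh1a3 and 0.697 for Ltf to 0.973 for Csn1s2a. With the general epithelium mean it ran from 0.152 for Lalba to 0.793 for Csn2. Predicted genes and pseudogenes were passed over in the search for genes of like pattern. The 10 other genes outside the set with the pattern most like the mean of the 9 over the same 10 libraries were Dkk3 (r 0.971), Clic6 (0.971), Kit (0.962), Fbxo32 (0.961), Abhd17c (0.950), Col9a1 (0.944), Atp6v1b1 (0.940), Aldoc (0.940), Bbs5 (0.932) and Folr1 (0.929). Spearman's rho for them lay between 0.867 and 0.976. Dkk3 encodes a secreted protein of the dickkopf family, Atp6v1b1 a subunit of the proton pump and Folr1 a folate receptor. Folr1 was highest in Null_LFD 1, at 58.0 TPM, and lowest in WT_LFD 2, at 7.14 TPM, and Atp6v1b1 from 6.89 TPM in Null_HFD 3 to 98.2 TPM in Null_LFD 2.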

How the data were processed

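Total RNA of 10 inguinal mammary fat pads was sequenced by the submitters as stranded libraries depleted of ribosomal RNA, per the labels' protocols. The deposited table holds 1 value per gene symbol and library on a log2 scale, read here as log2(TPM + 1) from the values themselves, since they start at 0 and sum to 946103 to 954463 per library once taken back to TPM. Build GRCm38 and the tools kallisto and limma are named, without versions or roles, per the submitters' processing notes. Values without a symbol, 0.00544% to 0.0108% of TPM, were left out. TPM keeps no depth, so no counting error can be given.

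Groups were taken from the titles of the samples. The 16932 genes that reached 1 TPM in 2 libraries or more were fitted with limma (3.58.1, R 4.3.3) on log2(TPM + 1), pseudocount 1, as 4 group means with a variance trend on mean level (6 residual degrees of freedom). Tests were two-sided, adjusted over all 16932 genes of each of 7 comparisons by the Benjamini-Hochberg method, and passed at an adjusted p of at most 0.05. The procedure was tested on simulated data. The series describes the samples of a group as biological replicates.

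The 9 genes, the other gene lists and the tests were chosen with earlier results of these data known. All 9 genes are named. Genes of like pattern, with predicted genes and pseudogenes passed over by name, are the 10 with the highest r. Of the other lists, named genes are up to 4 with the smallest p in the low-fat genotype or the averaged diet comparison. Of these, some are not given. Genes named outside that rule (Glycam1, Stat5a, Prlr, Sox10 and the neutrophil genes other than Lcn2) were chosen after their values were seen. Alternatives were another pseudocount, 2 other filters, median-of-ratios scaling, no variance trend, array weights, a replicate block, and leaving out libraries. Coordinates are from GENCODE M21, and promoter sequences from RefSeq (GRCm38.p6).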

Additional observations from a re-analysis of the deposited data

Results flagged for a closer look

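The genotype difference ran in opposite directions on the 2 diets for Csn3 and Elf5, with every null library above every wild-type library on the low-fat diet and below on the high-fat diet. The interaction was -4.00 for Csn3 and -3.06 for Elf5 on the log2(TPM + 1) scale, and neither passed the test of the difference itself (limma adjusted p = 0.966). Over all genes, 1.43% had such groups, and so had 2 of 10 general epithelial genes (Epcam and Cldn3), 3 of 8 luminal progenitor genes (Cd14, Sox10 and Lcn2) and 1 of 8 basal genes (Trp63). Relative to the general epithelium mean of each library, the Elf5 groups overlapped on both diets. On that scale the Csn3 groups overlapped on the high-fat diet and stayed apart on the low-fat diet.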

How the results depend on the processing

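Each comparison was recomputed under 18 other settings, none of which called any of the 9 genes in any comparison, and adjusted p values of the 9 ran from 0.224 to 1 on the low-fat diet, from 0.788 to 1 on the high-fat diet and from 0.283 to 1.00 in the interaction. Of 810 differences of single genes in the 5 comparisons other than the averaged ones, 792 kept their direction and 18 reversed, all of them of Ltf, Aldh1a3 or Lalba; the causes were not tested. In the averaged comparisons, 12 of 162 genotype differences reversed, of Csn1s1, Csn2, Ltf and Aldh1a3, and 13 of 162 diet differences, of Csn1s1, Csn1s2a, Csn2, Csn3, Lalba and Elf5. On the low-fat diet Ltf was at -0.625 without WT_LFD 2 and ran from -0.733 without Null_LFD 1 to 1.37 without Null_LFD 3. On the high-fat diet Aldh1a3 was at 0.107 with array weights, at 0.456 without the libraries rich in lymph node transcripts, at 0.273 without WT_HFD 2, at 0.0152 without Null_HFD 2, at 0.171 without Null_HFD 3 and lowest, at -0.30, without WT_HFD 1. In the interaction Ltf was at 0.205 without WT_LFD 2 and at 0.314 without Null_LFD 1, with -1.79 without Null_LFD 3 as its lowest, and Aldh1a3 at 0.182 without the libraries rich in lymph node transcripts. Between the diets, Lalba in null pads was at 0.117 without Null_LFD 1 and at 0.0304 without Null_LFD 2 (lowest, -3.63, without Null_LFD 3), Ltf in wild-type pads at 0.526 without WT_LFD 1 and at -1.26 without WT_LFD 2, and Aldh1a3 in wild-type pads at 0.0200 without WT_LFD 1 and at 0.139 without WT_HFD 1 (lowest, -0.43, without WT_HFD 2). With the replicate number as a block, the high-fat differences of Lalba, Ltf and Aldh1a3 were 0.371, 0.262 and 0.168. Libraries with the same number did not deviate from their group means together as a rule (r of these deviations over all genes -0.346 to 0.412 in 13 pairs, median 0.0245, over 0.1 in 2 pairs). In 24 pairs with different numbers r ran from -0.502 to 0.502, so the numbers are not read as pairs. By these deviations, 7 of 10 libraries correlated best with one of their own number. In a group of 2 the deviations mirror each other, so these matches are not independent and nothing is drawn from that count. The mean of the 9 genes was highest in replicate 1 in 4 of 4 groups, which is a hint from these values and not from the design. Under that block Csn3 on the low-fat diet was at 3.15 (limma adjusted p = 0.419), Elf5 at 2.19, and the counts at an unadjusted p under 0.05 were 7 in place of 5 for the low-fat comparison, 6 in place of 0 for the averaged genotype comparison and 5 in place of 2 for diet in wild-type pads. It changed no call. After median-of-ratios scaling the last of these counts was 1. The fitted low-fat value of Wap was 3.41 with a pseudocount of 1 and 6.51 with 0.1, so it is not read as a size. Where 1 wild-type library of a diet is left out, the other is assumed to vary like the other groups. Groups of 2 and 3 libraries and values without depth limit what can be told apart.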
